A study of Mus musculus with 12 samples.

Results

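The genes described are 9 immediate early genes of 2 transcription factor families, AP-1 and EGR, in mouse spleen CD8+ T cells. The AP-1 members are Fos, Fosb, Fosl2, Jun, Junb and Jund, and the EGR members are Egr1, Egr2 and Egr3. They were chosen by symbol and found by Ensembl ID, 9 of the 56691 gene IDs counted, and all 9 were among the 15935 genes with enough counts to be tested. In the GRCm38 gene models Fos (ENSMUSG00000021250) lies on chromosome 12, Fosb (ENSMUSG00000003545) on 7, Fosl2 (ENSMUSG00000029135) on 5, Jun (ENSMUSG00000052684) on 4, and Junb (ENSMUSG00000052837) and Jund (ENSMUSG00000071076) on 8. Egr1 (ENSMUSG00000038418) lies on chromosome 18, Egr2 (ENSMUSG00000037868) on 10 and Egr3 (ENSMUSG00000033730) on 14. Each group had 3 libraries: Senp1 CKO cells after 48 h with antibodies to CD3 (5 µg/ml) and CD28 (1 µg/ml), Senp1 WT cells after the same 48 h, and unstimulated (0 h) CKO and WT cells. The cells of all groups were naive spleen cells to begin with, CD3 belongs to the T-cell receptor complex, and CD28 is a costimulatory receptor. CKO is the usual short form of conditional knockout, and neither the driver of the deletion nor the age of the mice was found in the sources used. Senp1, which encodes a SUMO protease, an enzyme that takes SUMO groups off other proteins, had 70.0, 74.5 and 66.3 CPM (a gene's count as a share of the scaled library total) in CKO cells at 48 h, against 150.3, 170.8 and 163.9 CPM in WT cells. At 0 h it had 56.5, 59.8 and 54.6 CPM in CKO cells, against 83.9, 85.4 and 77.9 CPM in WT cells, so the labels and the targeted gene went together while some Senp1 RNA was read in every CKO library.

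Immediate early genes are transcribed within minutes of a signal, without new protein synthesis, and their RNAs are usually short-lived. In T cells the Ras and ERK, JNK and p38 kinase pathways below the antigen receptor act on SRF, its TCF partners and CREB-like factors, which switch on Fos, Jun and Egr genes. A Jun protein pairs with a Fos, Jun or BATF protein to form AP-1, which binds cytokine gene promoters beside NFAT, and EGR proteins act on both activation and inhibitory genes. Fos and Jun RNAs are also known to be induced while cells are being isolated from tissue. The earliest stimulated libraries were taken at 48 h, so the peak of the response was not measured and the comparisons show what stood at 48 h against unstimulated cells.

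The start regions of 4 members are shown because they hold some of the letters through which such signals are known to reach these genes. They are the 250 bases before the RefSeq start in GRCm38.p6, Fos at chr12:85473640-85473889 on the plus strand, Fosb at chr7:19310046-19310295 on the minus strand, Jun at chr4:95052223-95052472 on the minus strand, and the third of 5 listed Egr2 starts at chr10:67537619-67537868 on the plus strand. Capitals mark matches, on either strand, to the CRE TGACNTCA, the shorter CRE core TGACG, the EGR motif GCGNGGGCG, the CArG box bound by SRF, and TATAAA.
Fos: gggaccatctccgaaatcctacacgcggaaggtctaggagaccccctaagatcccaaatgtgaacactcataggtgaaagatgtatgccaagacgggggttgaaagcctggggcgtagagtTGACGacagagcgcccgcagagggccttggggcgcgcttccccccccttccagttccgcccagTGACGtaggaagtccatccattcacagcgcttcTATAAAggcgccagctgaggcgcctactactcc
Fosb: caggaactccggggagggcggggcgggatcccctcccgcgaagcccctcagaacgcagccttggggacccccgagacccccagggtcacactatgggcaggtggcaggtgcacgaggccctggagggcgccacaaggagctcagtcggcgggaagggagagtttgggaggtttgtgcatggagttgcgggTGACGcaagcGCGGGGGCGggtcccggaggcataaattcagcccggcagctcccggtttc
Jun: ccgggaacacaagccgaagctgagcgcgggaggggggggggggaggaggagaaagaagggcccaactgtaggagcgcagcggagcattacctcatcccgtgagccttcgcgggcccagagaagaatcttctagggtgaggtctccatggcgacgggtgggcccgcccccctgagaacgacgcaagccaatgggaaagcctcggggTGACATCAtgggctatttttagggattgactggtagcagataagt
Egr2: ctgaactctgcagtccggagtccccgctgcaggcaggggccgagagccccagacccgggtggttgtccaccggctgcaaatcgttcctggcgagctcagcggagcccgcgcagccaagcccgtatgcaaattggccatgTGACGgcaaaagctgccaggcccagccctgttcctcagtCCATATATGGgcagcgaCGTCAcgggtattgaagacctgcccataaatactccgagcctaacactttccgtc

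Counting from -1 at the base before the start, the Fos window held TGACG at positions -129 to -125 and -66 to -62 and TATAAA at -33 to -28. The Jun window held TGACATCA at -45 to -38, a full CRE match that is also a known site for Jun-containing dimers. In the Fosb window GCGGGGGCG lay at -50 to -42, next to TGACG at -60 to -56, and the Fosl2 window held the same EGR letters at -79 to -71. A CArG box stood in the windows of 4 of the 5 listed Egr2 starts, some of which overlap, at -72 to -63 in the one shown. The Junb window held TGACG at -106 to -102, and the Jund window held none of these letters. The AP-1 motif TGANTCA was in none of the windows of these 7 genes. Among 32851 promoters of the same length, 7.49% held TGACNTCA, 17.8% TGACG, 4.70% GCGNGGGCG, 1.47% a CArG box, 6.75% TGANTCA and 12.4% TATAAA. The shorter core overlaps with the full CRE when N is G, and it was added to the search after the sequences had been seen. A match describes the letters and is not evidence that a factor was bound.

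Library totals ran from 15900529 to 22427151 counts. All 8 CD8 T-cell markers, among them Cd3e and Cd8a, were read in every group, and their summed level was 1915 to 2004 CPM in CKO and 2180 to 2241 CPM in WT cells at 48 h, against 4211 to 4567 CPM in CKO and 4363 to 4635 CPM in WT cells at 0 h. The 14 B-cell markers summed to 388.2 to 424.3 CPM in CKO and 382.7 to 513.2 CPM in WT cells at 48 h, against 1300.0 to 1510 CPM in CKO and 1785 to 3171 CPM in WT cells at 0 h. The 7 natural killer cell markers summed to 139.7 to 194.8, 227.0 to 263.2, 141.3 to 240.8 and 139.1 to 181.6 CPM in the same order of groups, and the 10 myeloid markers to 46.4 to 62.7, 49.4 to 66.5, 74.4 to 117.5 and 72.9 to 116.9 CPM. Single genes carried much of these sums at 48 h. Eomes, which activated CD8+ T cells also express, had 130.8 to 186.5 CPM in CKO and 221.3 to 257.5 CPM in WT cells at 48 h and was called higher than at 0 h, whereas the other 6 natural killer markers were called lower in both genotypes (median log2 change of the 7, -3.67 in CKO and -3.61 in WT). Of 9 myeloid markers tested, 7 in CKO and 6 in WT were called lower (medians -3.17, or -2.69 with Siglech at its bound against 3 counts, and -3.47, the same with the bound), while Mpeg1 was called higher and Cst3 was not called. Neutrophil markers summed to at most 0.0506 CPM at 48 h, with 5 of 6 at 0 in each genotype, and to 1.65 to 6.36 CPM at 0 h with Ly6g at 0. Erythroid and platelet markers summed to at most 0.624 CPM at 48 h and 10.8 to 36.1 CPM at 0 h, and Hbb-bs, Hbb-bt and Ppbp were at 0 in both genotypes at 48 h. Of the B-cell markers 13 of 14 in CKO and 14 of 14 in WT were called lower at 48 h. Of all tested genes 39.2% were called lower in CKO and 39.1% in WT. All 8 CD8 T-cell markers were called lower at 48 h in both genotypes too (median log2 change -1.08 in CKO and -1.03 in WT). Most B-cell, natural killer and myeloid markers were thus lower at 48 h together with the CD8 T-cell markers and the AP-1 genes described next. The part of other cells in the AP-1 results was not tested. WT replicate 1 stood apart at 48 h, where its counts differed from those of the other WT libraries more than any other pair within a group did, and at 0 h it had the highest B-cell sum.

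All 6 AP-1 members were lower at 48 h in both genotypes, with 0.930% to 24.6% of the 0 h level left, while none of the 3 EGR members was called in either direction. That is 6 of 9 members called lower in CKO cells, where 39.2% of all tested genes were lower and 77.7% were called in either direction (edgeR adjusted p under 0.05). In WT cells 6 of 9 members were lower as well, where 39.1% of all genes were lower and 77.9% called in either direction. The median log2 change of the members was -2.16 in CKO and -2.03 in WT, against -0.04 and -0.03 over all tested genes. For the same 6 members the libraries at 48 h and 0 h did not overlap, as was the case for 40.8% of all tested genes lower at 48 h in CKO and 39.8% in WT. No member was higher at 48 h without overlap, where 40.1% of all tested genes were in CKO and 39.6% in WT. No member was called higher in CKO by edgeR, none at an unadjusted p under 0.05 and none by DESeq2, where 38.5% of all genes were called higher by edgeR. In WT edgeR also called none higher, against 38.7% of all genes, while Egr3 had an unadjusted p under 0.05 and was the 1 member called higher by DESeq2. CPM are shares of the RNA counted, and in bulk samples fewer cells with a transcript and less of it per cell cannot be told apart.

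**Figure D1:**
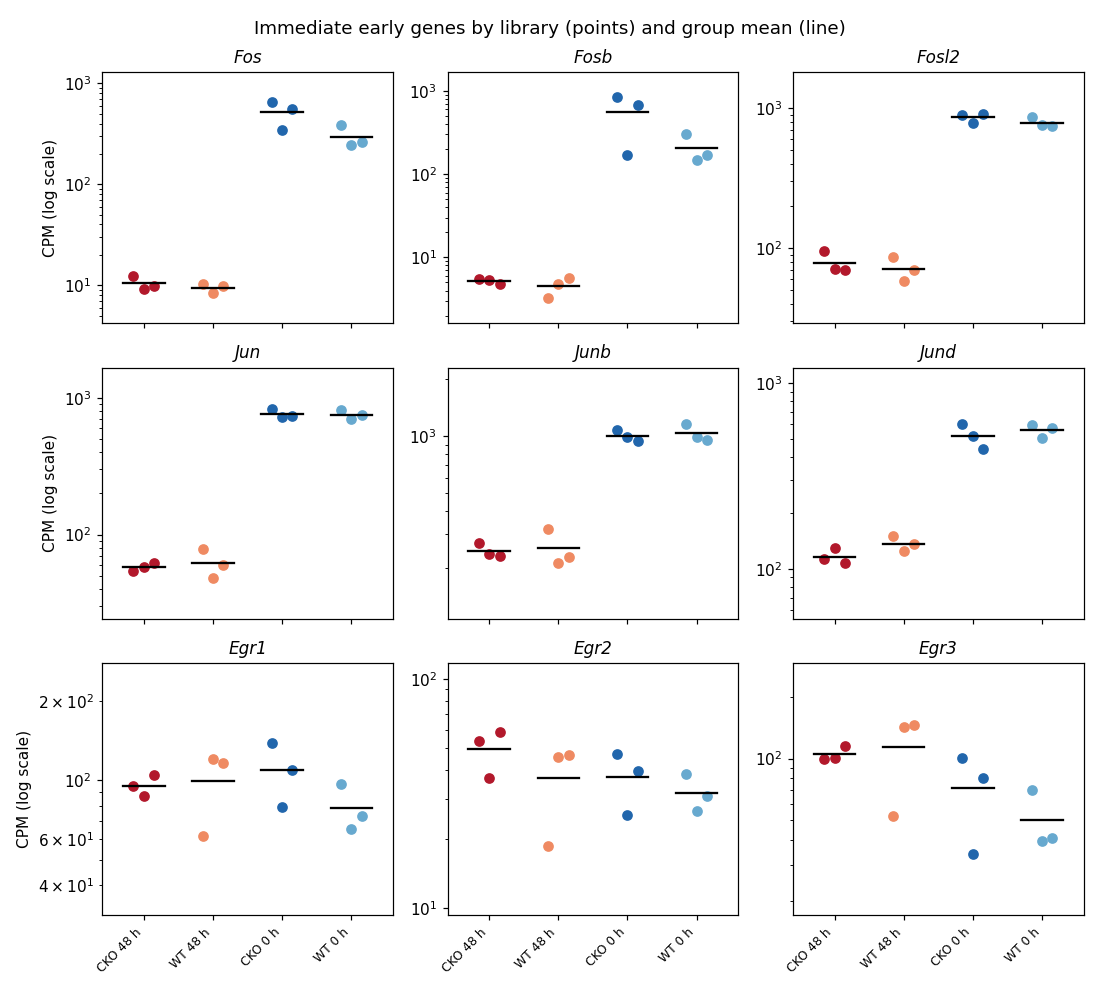
CPM on a log scale for each of the 9 genes in CKO 48 h, WT 48 h, CKO 0 h and WT 0 h libraries, one point per library with a line at the group mean. The points of the 6 AP-1 genes separate by time without overlap, as for Fos with at most 12.4 CPM at 48 h and at least 244.1 CPM at 0 h, while those of the 3 Egr genes overlap.

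Fos encodes c-Fos, a strong activator once paired with a Jun protein, and is the textbook immediate early gene. It had 12.4, 9.22 and 9.76 CPM in CKO cells at 48 h, against 650.9, 343.9 and 564.1 CPM in CKO cells at 0 h. In WT cells it had 10.2, 8.37 and 9.80 CPM at 48 h, against 385.5, 244.1 and 261.5 CPM at 0 h. Every 48 h library was below every 0 h library, and the 6 stimulated libraries lay close together across genotypes. The log2 change was -5.63 ± 0.32 in CKO (SE, edgeR adjusted p = 2.50e-07) and -4.97 ± 0.32 in WT (edgeR adjusted p = 5.55e-07). This left 2.01% of the 0 h level in CKO cells (interval of 2 SE each way 1.29% to 3.16%) and 3.19% in WT cells (2.06% to 4.96%).

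Fosb, a close relative of Fos that also gives a shorter splice form lacking part of the activation domain, had the largest fitted fall of the 9 in each genotype. It stood at 5.49, 5.38 and 4.81 CPM in CKO cells at 48 h, against 843.1, 170.1 and 671 CPM in CKO cells at 0 h. In WT cells the values were 3.22, 4.84 and 5.58 CPM at 48 h, against 306.5, 147.9 and 169.7 CPM at 0 h. Again no 48 h library reached any 0 h library, but the CKO 0 h libraries differed among themselves by 4.96-fold, replicate 2 being the low one. The log2 change was -6.75 ± 0.72 in CKO (edgeR adjusted p = 2.73e-05) and -5.50 ± 0.71 in WT (edgeR adjusted p = 9.41e-05), so 0.930% (0.341% to 2.54%) and 2.21% (0.827% to 5.88%) of the 0 h level were left. The 48 h levels rest on 95 to 98 counts per CKO library and 62 to 123 counts per WT library.

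Fosl2 encodes FRA2, a Fos relative without the strong activation domain of Fos, which is known to repress or fine-tune T-cell genes as well as to activate them. It had 95.5, 71.5 and 69.6 CPM in CKO cells at 48 h, against 902.1, 788.1 and 910.3 CPM in CKO cells at 0 h. The WT libraries had 86.5, 57.9 and 69.9 CPM at 48 h, against 861, 759.1 and 748.8 CPM at 0 h. Libraries of the same time were close in both genotypes and those of different times did not overlap. Its log2 change was -3.46 ± 0.17 in CKO (edgeR adjusted p = 7.13e-09) and -3.47 ± 0.17 in WT (edgeR adjusted p = 6.94e-09), which left 9.09% (7.22% to 11.5%) and 9.05% (7.18% to 11.4%).

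Jun encodes c-Jun, the Jun protein most directly switched on by JNK. It stood at 54.2, 58.1 and 61.9 CPM in CKO cells at 48 h, against 831.5, 728.3 and 742.3 CPM in CKO cells at 0 h. In WT cells it stood at 78.5, 48.0 and 60.3 CPM at 48 h, against 820.7, 698.0 and 742.8 CPM at 0 h. The times were far apart and the genotypes overlapped at each time, with WT replicate 1 the highest library at 48 h. The log2 change was -3.72 ± 0.16 in CKO (edgeR adjusted p = 9.32e-10) and -3.60 ± 0.16 in WT (edgeR adjusted p = 1.19e-09), and 7.57% (6.09% to 9.41%) and 8.26% (6.66% to 10.3%) of the 0 h level were left. The antisense gene Junos, which overlaps Jun, had at most 18 counts in any library, where Jun had at least 913.

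Junb and Jund, the other two Jun genes, kept more of their unstimulated level than the other AP-1 members. JunB pairs with BATF in activated T cells, and JunD is known mostly as a restraint on growth and cytokine genes. Junb had 271.4, 237.3 and 229.9 CPM in CKO cells at 48 h, against 1079, 991.1 and 940.4 CPM in CKO cells at 0 h, and in WT cells 319.1, 212.8 and 228.5 CPM at 48 h, against 1156, 993.4 and 949.7 CPM at 0 h. Jund had 113.4, 128.9 and 107.3 CPM in CKO cells at 48 h, against 605.1, 516.5 and 440.5 CPM in CKO cells at 0 h, and in WT cells 150.2, 124.2 and 136.2 CPM at 48 h, against 593.8, 508.2 and 570.0 CPM at 0 h. For both genes every 48 h library was below every 0 h library. For Junb the log2 change was -2.03 ± 0.15 in each genotype (edgeR adjusted p = 1.80e-07 in CKO and 1.78e-07 in WT), leaving 24.5% in each (20.01% to 30.1% in CKO). For Jund it was -2.16 ± 0.12 in CKO (edgeR adjusted p = 4.59e-10) and -2.03 ± 0.11 in WT (edgeR adjusted p = 8.61e-10), leaving 22.4% (19.1% to 26.3%) and 24.6% (21.0% to 28.8%). Prdx2, on the opposite strand, overlaps Junb in the annotation and had at most 2585 counts in any library, where Junb had at least 4045. The sources used do not name the strand setting of the counting, and whether reads of the pair were told apart is not known.

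**Figure D2:**
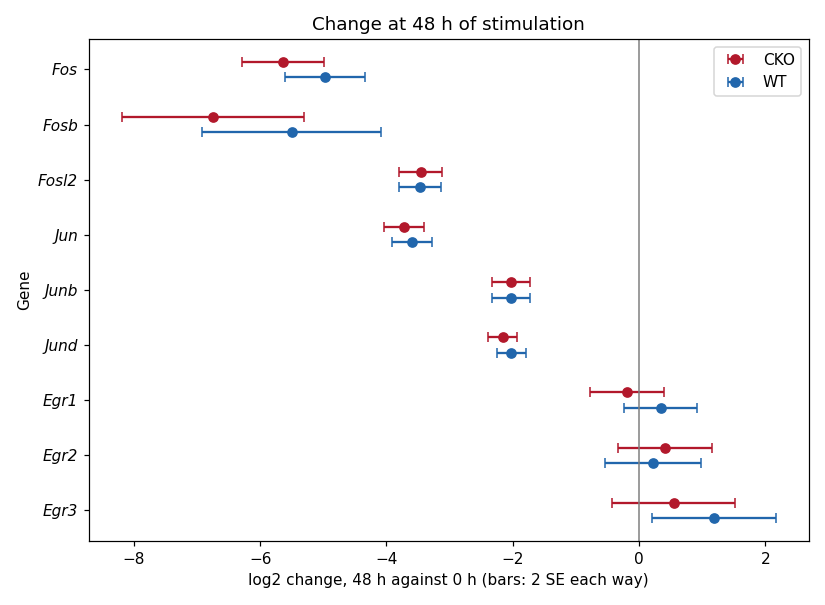
Log2 change of each gene at 48 h against 0 h from the edgeR fit, CKO above WT, with bars of 2 SE each way, 3 libraries per group. The AP-1 genes lie between -6.75 and -2.03 and the Egr genes between -0.19 and 1.18.

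Within the AP-1 members the falls formed 3 steps, the same in both genotypes by the fitted values. Fos and Fosb were lowest, Fosl2 and Jun lay between 7.57% and 9.09% of the 0 h level, and Junb and Jund between 22.4% and 24.6%. The intervals of the steps did not overlap in either genotype, whereas within each step those of the pair did. Over the 12 libraries the log2 CPM patterns, centred for each gene, were most alike for Junb and Jund among all pairs of members (root mean square difference 0.16), followed by Fosl2 and Jun (0.20). Fos and Fosb were less alike (0.54), and the pairs of EGR genes lay at 0.26 to 0.47. The measure includes the change between the times, so likeness within a step is no separate result.

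The EGR genes encode zinc finger factors. Egr1 is induced directly by ERK signalling, and Egr2 and Egr3, which NFAT also drives, are known for their part in T-cell tolerance as well as in proliferation. Egr1 had 94.8, 86.9 and 104.3 CPM in CKO cells at 48 h, against 138.4, 79.3 and 109.6 CPM in CKO cells at 0 h. In WT cells it had 61.7, 120.0 and 116.1 CPM at 48 h, against 96.5, 65.6 and 73.4 CPM at 0 h. The times overlapped in both genotypes, and the log2 change was -0.19 ± 0.29 in CKO (edgeR adjusted p = 0.561) and 0.34 ± 0.29 in WT (edgeR adjusted p = 0.313). The level at 48 h was thus 87.4% of that at 0 h in CKO, with an interval of 58.4% to 131%, and 126.6% in WT, with an interval of 84.3% to 190%.

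Egr2 had 53.6, 36.7 and 58.4 CPM in CKO cells at 48 h, against 46.8, 25.6 and 39.4 CPM in CKO cells at 0 h. In WT cells it had 18.6, 45.7 and 46.6 CPM at 48 h, against 38.4, 26.4 and 30.8 CPM at 0 h. Libraries of both times overlapped, and the lowest WT library and the 2 highest were all from WT at 48 h. The log2 change was 0.41 ± 0.37 in CKO (edgeR adjusted p = 0.336, 79.3% to 224% of the 0 h level) and 0.22 ± 0.38 in WT (edgeR adjusted p = 0.614, 68.8% to 197%).

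Egr3 had 99.9, 100.2 and 115.7 CPM in CKO cells at 48 h, against 100.8, 34.3 and 80.6 CPM in CKO cells at 0 h. In WT cells it had 52.1, 143.1 and 146.4 CPM at 48 h, against 70.5, 39.3 and 41.0 CPM at 0 h. The overlap came from replicate 1 in both genotypes, which was high at 0 h, and in WT also low at 48 h. The log2 change was 0.55 ± 0.49 in CKO (edgeR adjusted p = 0.324, 74.7% to 287% of the 0 h level) and 1.18 ± 0.49 in WT (edgeR adjusted p = 0.0542, 115% to 449%). The WT value depended on single libraries. Without WT replicate 1 at 48 h the log2 change was 1.53 with an edgeR adjusted p of 0.0122, and without WT replicate 1 at 0 h it was 1.51 with 0.0422. Over all 23 alternatives the adjusted p of Egr3 in WT ran from 0.00895 to 0.174, and 6 of them called it higher. For Egr1 in WT 1 of 23 did, the fit without WT replicate 1 at both times (log2 change 0.77, edgeR adjusted p = 0.0276, range over the alternatives 0.0276 to 0.629).

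Within a group the same library was often the highest or the lowest for several of the 9 genes. How often this held over all tested genes was not counted. WT replicate 1 at 0 h was the highest library of its group for all 6 AP-1 and all 3 EGR members. CKO replicate 1 at 0 h was the highest for 5 of 6 AP-1 and all 3 EGR members. WT replicate 2 at 0 h was the lowest for 4 of 6 AP-1 and all 3 EGR members. For Fos, Fosb and the 3 EGR members, replicate 1 was thus highest and replicate 2 lowest at 0 h in both genotypes. CKO replicate 2 at 0 h was the lowest of its group for Fos, Fosb, Fosl2, Jun and all 3 EGR members, by -1.98 (log2, against the group median) for Fosb and -1.23 for Egr3, but by -0.03 for Jun. WT replicate 1 at 48 h was the lowest of its group for the 3 EGR members, by -0.91 for Egr1, -1.29 for Egr2 and -1.46 for Egr3, and the highest for 5 of 6 AP-1 members, the exception being Fosb. In that library the B-cell markers summed to 513.2 CPM against 382.7 and 401.2 CPM in WT replicates 2 and 3. The 6 CD4 and regulatory T-cell markers summed to 1031 CPM against 668.2 and 691.1 CPM, of which Ctla4, also induced in activated CD8+ T cells, made up 931.4 CPM against 548.5 and 595.2 CPM, while Cd4 had 49.4 CPM against 62.7 and 50.02 CPM. In WT replicate 1 at 0 h the B-cell sum was 3171 CPM against 1785 and 1788 CPM. Whether these marker levels bear on the AP-1 and EGR values was not tested.

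**Figure D3:**
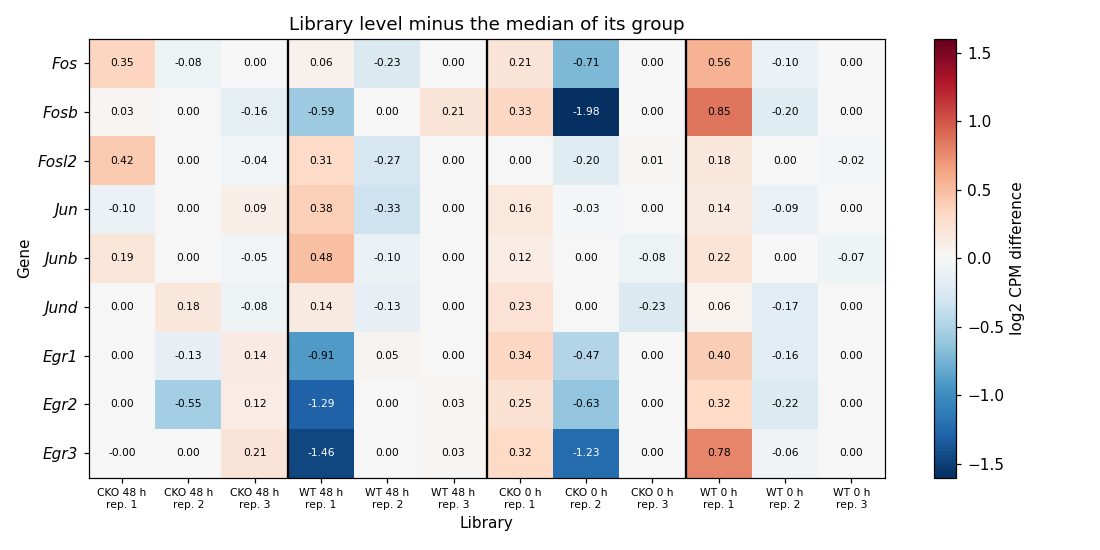
Log2 CPM of each gene (rows) in each of the 12 libraries (columns) minus the median of its group of 3, printed and coloured, red above and blue below. WT 48 h replicate 1 shows -0.91 to -1.46 for the Egr genes beside 0.06 to 0.48 for 5 AP-1 genes, and CKO 0 h replicate 2 shows -1.98 for Fosb and -1.23 for Egr3.

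CKO cells were then set against WT cells at each time, which asks how these genes differ between the genotypes. These contrasts use the same libraries as the comparisons above. At 48 h no member was called in either direction by edgeR, where 4.54% of all genes were called, 2.35% higher and 2.19% lower in CKO, and none had an unadjusted p under 0.05 or was called by DESeq2. All 9 members overlapped between CKO and WT libraries at 48 h, where 11.5% of all tested genes did not overlap with CKO higher and 12.2% with CKO lower. The values at 48 h bound the difference more narrowly for some members than for others. The CKO level was 97.1% of the WT level for Junb (2 SE each way, 79.7% to 118%), 93.3% for Jun (76.0% to 115%) and 110.3% for Fosl2 (88.7% to 137%). Jund was at 85.1% (72.9% to 99.4%), a log2 difference of -0.23 ± 0.11 with an edgeR adjusted p of 0.324. It was called lower only when no filter on low counts was applied (log2 -0.25, edgeR adjusted p = 0.00975), and over the 22 alternatives its adjusted p ran from 0.00975 to 0.672. The intervals were wider for Fos (68.5% to 178%), Egr1 (64.2% to 144%), Egr2 (80.2% to 224%), Egr3 (47.7% to 179%) and Fosb (34.1% to 381%), so differences within them were not resolved by this fit. It takes 1 estimate of spread per gene from all 12 libraries, so scatter at 0 h enters these intervals. The SD of Fosb was 7.02% of the mean in CKO and 26.5% in WT at 48 h, against 62.3% and 41.3% at 0 h. For Fos it was 16.4% and 10.35% at 48 h, against 30.45% and 26.0% at 0 h. For the 3 EGR members it was 32.8% to 47.0% in WT at 48 h.

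Before stimulation the 2 members with the largest fitted genotype differences were Fos and Fosb. In CKO cells at 0 h Fos averaged 519.6 ± 158 CPM, against 297.1 ± 77.1 CPM in WT cells (SD, n = 3 each), and Fosb averaged 561.4 ± 350 CPM in CKO against 208.0 ± 86.0 CPM in WT. CKO replicate 2 lay inside the WT range for both genes, and the other two CKO libraries lay above every WT library. The log2 difference was 0.81 ± 0.25 for Fos (edgeR adjusted p = 0.105) and 1.43 ± 0.53 for Fosb (edgeR adjusted p = 0.165). So none of the 9 was called by edgeR with 1 mean per group at 0 h, where 7.48% of all genes were called, 4.1% higher and 3.38% lower in CKO, although Fos and Fosb had unadjusted p-values of 0.0120 and 0.0261 and DESeq2 called 1 member, Fos (adjusted p = 0.0195). All 9 overlapped between the genotypes at 0 h, where 12% of all tested genes did not overlap with CKO higher and 12.6% with CKO lower. Without CKO replicate 2 at 0 h both genes were called higher, Fos at 1.03 (edgeR adjusted p = 0.0133) and Fosb at 1.86 (edgeR adjusted p = 0.0115). Over the 22 alternatives the adjusted p ran from 0.000507 to 0.307 for Fos and from 0.0115 to 0.394 for Fosb, with 4 and 2 calls. The lowest for Fos came from the edgeR fit with a replicate block (log2 0.79). The replicate numbers are not stated to pair the samples. The B-cell markers, given above, had a lower sum in all 3 CKO than in all 3 WT libraries at 0 h, and their part in these values was not tested. Egr1 was at 139% of WT at 0 h (92.5% to 209%), Egr3 at 143% (71.8% to 285%) and Egr2 at 117% (68.9% to 199%). Jun was at 101.8% (84.0% to 123%), Junb at 97.2% (79.9% to 118%), Jund at 93.4% (80.3% to 109%) and Fosl2 at 109.8% (89.2% to 135%).

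The difference between the 48 h responses of CKO and WT cells was tested as an interaction, and no member was called in it by edgeR, where 1.38% of all genes were called, 0.609% higher and 0.772% lower. None had an unadjusted p under 0.05 and DESeq2 called none. The fitted differences were -0.67 ± 0.43 for Fos (edgeR adjusted p = 0.593), -1.24 ± 1.02 for Fosb (0.699), -0.53 ± 0.41 for Egr1 (0.680) and -0.63 ± 0.69 for Egr3 (0.794), in log2 with SE. Those of Fosl2 and Junb were 0.01 ± 0.22 and 0.00 ± 0.20, and that of Jun was -0.13 ± 0.20.

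**Figure D4:**
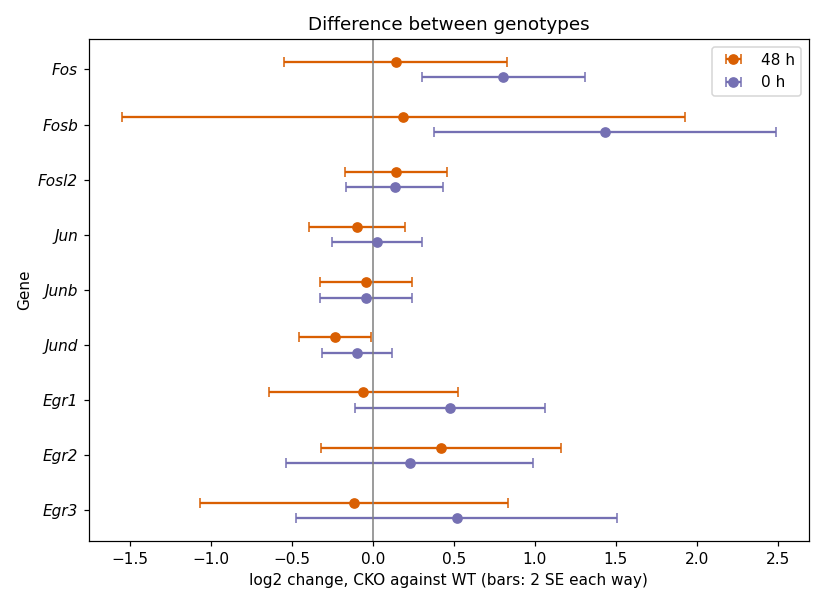
Log2 difference of each gene between CKO and WT from the edgeR fit, at 48 h (upper) and 0 h (lower), with bars of 2 SE each way, 3 libraries per group. The points at 48 h lie between -0.23 and 0.42, and those at 0 h reach 0.81 for Fos and 1.43 for Fosb.

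To compare levels between genes, CPM were divided by exon length in kilobases, using GRCm38 gene models, and these values carry the error of models from another build than that of the counts. Per length Junb was the highest of the 9 in every group, at 107.0 ± 9.61 CPM per kilobase in CKO and 110.2 ± 24.9 in WT cells at 48 h, against 436.1 ± 30.5 in CKO and 448.9 ± 47.2 in WT cells at 0 h (SD, n = 3 each). Jund came second in every group, at 69.9 ± 6.69 and 82.1 ± 7.79 at 48 h and 312.2 ± 49.4 and 334.1 ± 26.5 at 0 h in CKO and WT, and its libraries overlapped with neither neighbour in the order. The order below them differed with time. At 48 h it ran Egr3, Egr1, Jun, Egr2, Fosl2, Fos and Fosb in CKO and WT, at 23.9, 21.3, 18.2, 14.6, 8.14, 4.45 and 0.837 CPM per kilobase in CKO cells. Libraries of neighbours overlapped for Egr3 and Egr1, Egr1 and Jun, and Jun and Egr2 in CKO cells, and for Egr3 and Egr1, Egr1 and Jun, and Egr2 and Fosl2 in WT cells. At 0 h the 3 EGR genes had the lowest means of the 9, at 24.3, 16.3 and 10.96 CPM per kilobase for Egr1, Egr3 and Egr2 in CKO and 17.5, 11.4 and 9.38 in WT, neighbours in that order overlapping. Genes that were not neighbours by mean could overlap too. In CKO cells at 0 h Fosb replicate 2 (27.2) lay below Egr1 replicate 1 (30.9), and Fos replicate 1 (276.7) above Jund replicate 3 (264.1). Above them Jun and Fos overlapped in CKO cells at 0 h (240.6 ± 17.6 and 220.9 ± 67.3 CPM per kilobase), as did Fosb and Fosl2 (89.9 ± 56.0 and 89.6 ± 7.06), whereas in WT cells Jun (236.4 ± 19.5), Fos (126.3 ± 32.8), Fosl2 (81.6 ± 6.41) and Fosb (33.3 ± 13.8) did not overlap with their neighbours.

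Summed per length over the Jun, Fos and BATF genes, the AP-1 pool was 239.0 ± 14.9 CPM per kilobase in CKO and 252.1 ± 47.5 in WT cells at 48 h, against 1402 ± 190 in CKO and 1273 ± 139 in WT cells at 0 h. Its make-up also differed with time. Fos and Fosb made up 1.86% and 0.350% of the pool in CKO and 1.62% and 0.303% in WT cells at 48 h, against 15.6% and 6.16% in CKO and 9.82% and 2.56% in WT cells at 0 h. Junb made up 44.7% in CKO and 43.5% in WT cells at 48 h, against 31.3% in CKO and 35.3% in WT cells at 0 h, although its own level was lower at 48 h. Batf, the partner of JunB in effector T cells, made up 8.47% and 8.96% at 48 h, against 0.937% and 0.919% at 0 h in CKO and WT. Its own level differed less, at 20.3 against 12.9 CPM per kilobase in CKO and 22.8 against 11.7 in WT, while the pool was smaller at 48 h. Within the EGR genes, whose sum was 60.2 ± 6.89 CPM per kilobase in CKO and 59.1 ± 24.2 in WT cells at 48 h, against 51.6 ± 17.5 in CKO and 38.3 ± 9.26 in WT cells at 0 h, Egr3 held 39.9% and 42.6% at 48 h and 30.4% and 29.3% at 0 h.

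**Figure D5:**
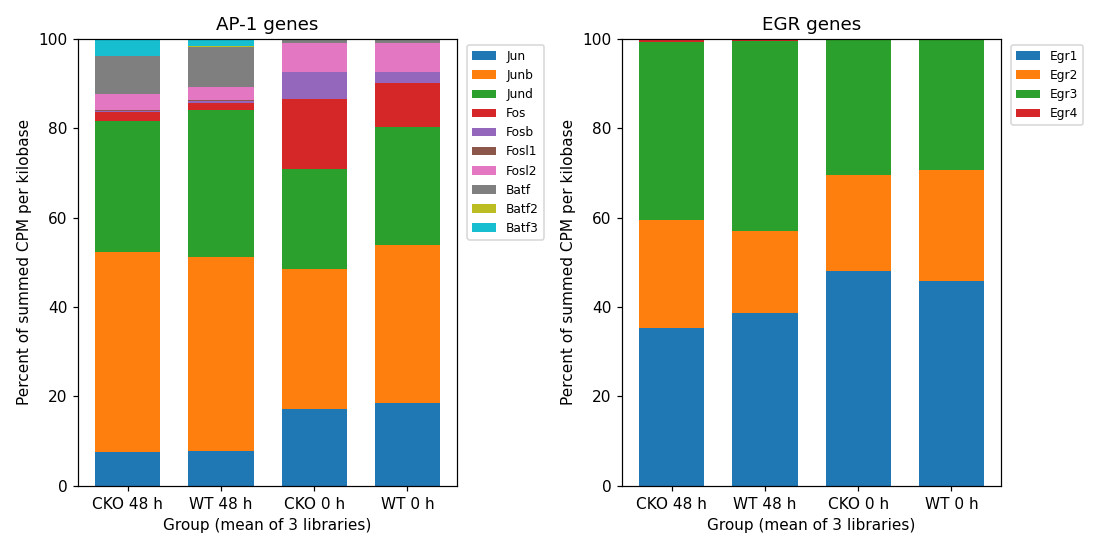
Share of each gene, in percent of the summed CPM per kilobase, within the AP-1 genes (left) and the EGR genes (right), as the mean of 3 libraries per group. Fos and Fosb shrink to 1.86% and 0.350% in CKO at 48 h against 15.6% and 6.16% in CKO at 0 h, and the Batf share is 8.47% against 0.937%. The Batf level itself was 20.3 against 12.9 CPM per kilobase.

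Other genes of the same bZIP family were called in both directions. Of 12 tested, 7 were higher and 5 lower at 48 h in CKO, and 6 were higher and 5 lower in WT, with median log2 changes of 0.47 and 0.53, against -0.04 and -0.03 over all tested genes. Among all tested genes 38.5% were called higher and 39.2% lower in CKO, and 38.7% and 39.1% in WT. Maff and Mafk, small MAF proteins that lack an activation domain, fell in both genotypes (log2 -3.62 ± 0.14 and -1.89 ± 0.07 in CKO, -3.58 ± 0.14 and -1.66 ± 0.07 in WT), as did Maf itself (-3.63 ± 0.26 in CKO and -4.68 ± 0.26 in WT). Batf rose by 0.65 ± 0.17 in CKO (edgeR adjusted p = 0.00338) and 0.96 ± 0.17 in WT (edgeR adjusted p = 0.000134). Batf3 and Fosl1, which encodes the remaining Fos relative FRA1, were also called higher in both, but Fosl1 had only 0 to 2 counts per CKO library at 0 h. Batf3 stood at 20.6, 9.38 and 15.3 CPM in CKO and 12.9, 4.31 and 4.45 CPM in WT cells at 48 h, against at most 0.242 CPM in CKO and 0.354 CPM in WT cells at 0 h. Among the EGR partners, Nab2, a corepressor that EGR proteins are known to induce, rose by 1.91 ± 0.09 in CKO and 2.11 ± 0.09 in WT, and Nab1, its relative, fell (-0.62 ± 0.07 and -0.71 ± 0.07). Egr4 was also called higher in both, with at most 3 counts per library at 0 h and 2 to 21 counts at 48 h.

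Of 10 regulators through which receptor signals reach these genes, 9 fell in CKO and all 10 in WT, with medians of -0.59 and -0.77, the exception being Crem in CKO (0.13 ± 0.20). For this count and those below, 38.5% of all tested genes rose and 39.2% fell in CKO, and 38.7% and 39.1% in WT. The lowest p-values belonged to Mef2d, an activity-dependent factor (-1.96 ± 0.07 in CKO and -2.04 ± 0.07 in WT), Elk4, a TCF partner of SRF (-1.37 ± 0.07 and -1.41 ± 0.07), and Mrtfa, an actin-regulated SRF coactivator (-1.17 ± 0.06 and -1.09 ± 0.06). Of 16 kinase cascade genes 4 rose and 7 fell in each genotype, and Map3k1, a kinase upstream of JNK, was among those that fell (-1.22 ± 0.07 in CKO and -0.96 ± 0.07 in WT). Of 10 MAPK phosphatase genes, which encode the enzymes that switch those kinases off and are often immediate early genes themselves, 3 rose and 6 fell in each, at medians of -1.10 and -1.09. Dusp1, which acts mainly on p38 and JNK, fell (-4.45 ± 0.10 in CKO and -4.28 ± 0.10 in WT), as did Dusp10, of like activity (-4.94 ± 0.17 and -5.45 ± 0.18). Of 7 genes that control the turnover of Jun and Fos proteins, 1 rose and 5 fell in CKO and 1 rose and 4 fell in WT, led by Usp28, a deubiquitinase that stabilises Jun (-2.01 ± 0.10 and -1.95 ± 0.10).

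Among 30 other immediate early genes 19 fell and 8 rose in each genotype, with medians of -1.02 in CKO and -0.82 in WT. Here too 39.2% of all tested genes fell and 38.5% rose in CKO, and 39.1% and 38.7% in WT. Tnfaip3, a brake on NF-kB signalling, fell (-4.44 ± 0.07 in CKO and -4.49 ± 0.07 in WT), as did Btg2, which restrains cell division (-2.84 ± 0.06 and -2.99 ± 0.06), and Sik1, a CREB-induced kinase (-3.13 ± 0.07 and -3.51 ± 0.08). Nr4a3, a nuclear receptor induced by antigen receptor signals, was instead higher (1.09 ± 0.25 in CKO, edgeR adjusted p = 0.00359, and 2.08 ± 0.26 in WT, edgeR adjusted p = 7.21e-05), as was Myc, the growth regulator (1.56 ± 0.23 and 2.21 ± 0.24). Nr4a3 and Myc were named after their values were seen. Nr4a1 and Nr4a2, relatives of Nr4a3 among the 30, were called lower in CKO. Their log2 changes were -2.63 ± 0.50 (edgeR adjusted p = 0.00116) and -1.09 ± 0.32 (edgeR adjusted p = 0.0119). In WT cells they averaged 169.8 and 55.6 CPM at 48 h, against 577.7 and 132.5 CPM at 0 h. The summed level of the 30 was 4607 to 4912 CPM in CKO and 4035 to 4311 CPM in WT cells at 48 h, against 10990 to 13640 CPM in CKO and 10730 to 12040 CPM in WT cells at 0 h. Of 9 tested heat-shock genes, also known to respond to cell isolation, 5 rose and 2 fell in CKO and 5 rose and 1 fell in WT, and neither Hspa1a nor Hspa1b was called (0.58 ± 0.49 and 0.24 ± 0.36 in CKO, 0.07 ± 0.51 and 0.17 ± 0.38 in WT). The part of cell isolation in the 0 h levels was not tested.

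Genes known as AP-1 targets stood high at 48 h while the AP-1 RNAs stood low. Of 8 tested, 6 rose and 2 fell in each genotype, with medians of 6.04 in CKO and 4.88 in WT, which were the same with Il3 set at its bound against 3 counts over the 0 h group. Il2ra, a chain of the interleukin 2 receptor, rose by 6.86 ± 0.13 in CKO and 7.45 ± 0.14 in WT, and the genes that fell were Cd69 and Fasl. At 48 h 2 of the 8 differed between genotypes and were higher in CKO, the growth factor genes Csf2 (13.4, 13.9 and 10.5 CPM in CKO against 5.56, 3.84 and 4.45 CPM in WT, log2 1.45 ± 0.26, edgeR adjusted p = 0.00219) and Il3 (14.6, 9.99 and 10.7 CPM in CKO against 2.60, 3.31 and 5.49 CPM in WT, 1.62 ± 0.28, edgeR adjusted p = 0.00275). Of all tested genes 2.35% were called higher in CKO at 48 h. Of 12 genes known as EGR2 or EGR3 targets 6 rose and 4 fell in each, with medians of 0.49 and 0.78. For these counts and those of the AP-1 targets, 38.5% of all tested genes rose and 39.2% fell in CKO. In WT the shares were 38.7% and 39.1%, and the EGR target counts were not far from them. Dgka, which limits Ras activation, fell (-2.14 ± 0.06 in CKO and -2.09 ± 0.06 in WT), and Cblb, a ubiquitin ligase that restrains receptor signalling, rose by 1.31 ± 0.07 and 1.04 ± 0.07.

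Between genotypes, 6 of the 30 other immediate early genes were higher in CKO at 48 h, while at 0 h 3 were higher and 1, Btg2, was lower (-0.33 ± 0.05, edgeR adjusted p = 0.00062). Of all tested genes 2.35% were higher and 2.19% lower in CKO at 48 h, and 4.1% and 3.38% at 0 h. Of the 12 other bZIP genes 1 was lower in CKO at 48 h, Mafk (-0.25 ± 0.07, edgeR adjusted p = 0.0366), and 1 at 0 h, Maf (-0.74 ± 0.20, edgeR adjusted p = 0.0267). At 48 h Rgs2, a regulator of G protein signalling among the 30 other immediate early genes, was higher in CKO by 1.32 ± 0.12 (edgeR adjusted p = 7.56e-06), with 51.4, 47.5 and 45.7 CPM in CKO against 14.3, 21.9 and 21.7 CPM in WT, and its 48 h response differed between the genotypes (interaction 1.32 ± 0.16, edgeR adjusted p = 0.000577). Dusp7, an ERK phosphatase, was lower in CKO at 48 h (log2 -1.66 ± 0.13, edgeR adjusted p = 5.43e-08) and at 0 h (-1.71 ± 0.13, edgeR adjusted p = 3.99e-08). Dusp4, another ERK phosphatase, was higher in CKO at 48 h (1.03 ± 0.15, edgeR adjusted p = 0.00159), and Elk3, a TCF partner of SRF, was too (0.69 ± 0.12, edgeR adjusted p = 0.00381).

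For each member the 2 most similar genes were sought among 10156 others by the root mean square difference of centred log2 CPM over the 12 libraries. Sgk1 was nearest to Fos (0.28), Apol8 to Fosb (0.68), Pde4b to Fosl2 (0.14), Trp53inp2 to Jun (0.13), Dusp5 to Junb (0.11) and Cd37 to Jund (0.11). In the EGR group Galm was nearest to Egr1 (0.23), Pou2f2 to Egr2 (0.30) and Zfp862-ps to Egr3 (0.26). The next were Apol8, Itgae, Irs2, Vps37b, Myl12b, Pglyrp2, Slc41a1, Ptov1 and Cd160, in the order Fos, Fosb, Fosl2, Jun, Junb, Jund, Egr1, Egr2 and Egr3, at 0.11 to 0.69. Dusp5 encodes an ERK phosphatase. Its log2 change of -2.09 in CKO and -2.05 in WT was close to that of Junb, which follows from how it was picked and is no separate result.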

How the data were processed

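The data are 12 RNA-seq libraries, 3 in each of 4 groups of genotype and time. The authors deposited 1 table of raw read counts by Ensembl ID, as its header and whole numbers show. TRIzol extraction and a stranded TruSeq mRNA kit are named in the labels' protocols. The submitters' processing notes list cutadapt, HISAT2 2.2.1, DESeq2 and GRCm39 with no role. How reads were counted (tool, annotation, strand setting, filters) is not given in the sources used here.

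Symbols were matched by ID for 52073 of 56691 IDs, and IDs without a symbol held 0.249% of counts. TMM scaling was followed by the quasi-likelihood test of edgeR 4.0.16 (robust, 1 mean per group, all 12 libraries, 8 residual degrees of freedom) in R 4.3.3, after filterByExpr kept 15935 genes. The p-values are two-sided, with Benjamini-Hochberg adjustment across all tested genes, and called under 0.05. Whether replicates are separate animals is not stated, and the p-values then reflect only how far these samples spread, which may be technical. Intervals are the log2 change plus or minus 2 SE. The test was run on simulated counts first.

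The members and all gene lists were chosen with earlier results of these data known. All 9 members are named, and from each of the other lists up to 3 genes with the smallest adjusted p, or genes whose call a sentence is about. Alternatives were RLE factors, library totals, no filter, a stricter filter, DESeq2 1.42.0, replicate blocks, fits of only the groups compared, a log2 change of at least 1, thinning to 15900529 counts, and leaving out each library or WT replicate 1 at both times. Leaving out CKO replicate 2 at both times was added after seeing the data. Promoter sequences are from RefSeq (GRCm38.p6), matched by symbol, and windows of 7 of the 9 members were searched. Exon lengths and overlapping genes are from GENCODE gene models of GRCm38, matched by ID. Python 3.11.15, pandas 2.3.3, NumPy 2.4.6 and matplotlib 3.10.9 were used for tables and figures.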

Additional observations from a re-analysis of the deposited data

How the results depend on the processing

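The 6 AP-1 falls were called in all 23 alternatives in both genotypes, and no log2 change of a called member changed sign. Leaving out 1 library at a time kept the members called lower at 6 to 6 in both genotypes. Members called higher at 48 h than at 0 h in WT numbered 1 in place of 0 with DESeq2 and without CKO replicate 2 at both times, and 2 without WT replicate 1 at both times (Egr1 and Egr3), and they ran from 0 to 1 when single libraries were left out. Egr3 was the 1 member without WT replicate 1 at 0 h or at 48 h, or CKO replicate 2 at 0 h (edgeR adjusted p = 0.0316). Members called lower in CKO than in WT at 48 h numbered 1 (Jund) in place of 0 with no filter on low counts. Members called higher in CKO than in WT at 0 h numbered 1 (Fos) with DESeq2 and 2 (Fos and Fosb) without CKO replicate 2 at both times, and they ran from 0 to 2 when single libraries were left out. With a replicate block Fos was called higher in CKO at 0 h (0.79, edgeR adjusted p = 0.000507), 1 member in place of 0. The replicate numbers are not stated to pair the samples. Deviations from the group means of same-numbered samples correlated at 0.042 to 0.162 within a genotype, where each sample correlated best with its own number at the other time, and at -0.011 to 0.095 between genotypes. Of 1008 log2 changes of members under alternatives, 994 kept their side of the threshold and 14 passed it. Counts over all genes moved most, relative to their size, in the genotype contrasts, from 206 to 551 higher and 142 to 653 lower at 48 h, 408 to 872 higher and 291 to 726 lower at 0 h, and 43 to 223 higher and 73 to 353 lower in the interaction, the lowest without CKO replicate 3 at the time compared or at 48 h. Without the TMM factors or with RLE factors the median log2 change of all genes stayed between -0.076 and 0.011. Depth limits Fosb at 48 h most, with 62 to 123 counts per library. Why the values moved under these alternatives was not tested.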
